A study of Arabidopsis thaliana with 12 samples.

Results

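The genes encoded in the mitochondrial genome were followed in mature seed of Arabidopsis thaliana, with the nuclear loci that lie in a copy of that genome on chromosome 2. Members were the probe sets of the Affymetrix ATH1 array whose single gene in the platform annotation has a mitochondrial symbol, or an AT2G07 locus that falls inside the mitochondrial insert by its place in the TAIR10.1 assembly. The insert's ends were set by hand from the order of genes in that assembly, and which AT2G07 loci count as members rests on them. A probe set is a group of short probes that report 1 signal. This gave 52 of 22746 probe sets. Of these, 23 carried a mitochondrial symbol and covered 16 genes, and 29 were insert loci. Another 39 probe sets with AT2G07 loci outside the insert were left out, as were 12 probe sets that the annotation assigns to several mitochondrial or insert genes.

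The study measured seed RNA on 12 arrays, 3 in each of 4 groups, to ask how the mother plant's surroundings and genotype bear on its seed. In the 10 °C group, wild-type Landsberg erecta (Ler) plants were kept at 20 °C in 16 h days until they flowered, and then at 10 °C until the seed was ripe. In the short-day group, wild-type Ler grew at 20 °C in 8 h days. In the ft-1 group, plants with the genotype ft-1, in the Ler background, grew at 20 °C in 16 h days. Each was set against wild-type Ler kept at 20 °C in 16 h days throughout, called 20 °C long days below. FT is a promoter of flowering. The source name of the ft-1 samples reads Glabra while their title and genotype read ft-1, and the FT transcript was not analysed here. All 4 groups are whole mature seed from opened siliques. In such bulk samples, fewer cells of a type and less RNA per cell cannot be told apart. The labels number the samples of a group but name no separate plants or harvests behind them. The p-values below therefore rest on the spread among these samples alone, and that spread may be technical.

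Plant mitochondria keep a small genome of their own. It encodes core subunits of the respiratory chain: the nad genes for complex I, which takes electrons from NADH, cob for complex III, and the cox genes for complex IV, which passes electrons to oxygen. It also encodes proteins that mature c-type cytochromes (the ccb genes, now called ccm), a protein-export channel (orfX, now called mttB or tatC), a maturase that acts in intron splicing (matR), parts of the ATP synthase and ribosomal proteins. The remaining subunits, and most factors that transcribe, splice and edit the organelle's RNA, are made from nuclear genes and imported. A dry seed holds mitochondria with little inner structure, and respiration resumes when the seed takes up water. Unlike nuclear messenger RNA, transcripts of plant mitochondria mostly lack a stable poly-A tail, and a tail there marks RNA for decay. The labelling kit named in the labels primes on poly-A, so the signals below report what that priming captured.

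The insert on chromosome 2 is a nearly complete nuclear copy of the mitochondrial genome. Signal from it and signal from the organelle cannot be told apart on this array, above all for the 24 members whose identifier ends in s_at, which marks probes shared by related transcripts. Of those 24, 19 were insert loci. The insert loci have no gene symbol in the annotation used here and are given by locus.

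Signals are the authors' MAS5 intensities, on a linear scale on which each array's trimmed mean is 100. Tests were run with limma on log2 signals of the 13648 probe sets whose mean lay at or above the 40th percentile, and a probe set was said to rise or fall when its Benjamini-Hochberg adjusted p was under 0.05. Differences are log2 values with the standard error (SE), and a difference of 1 is a doubling. Of the 52 members, 36 were bright enough to be tested: 18 with a mitochondrial symbol and 18 insert loci. The filter fell between matR, with a mean of 2.99 on the log2 scale, and nad2, with 2.87. The 5 dim probe sets with a mitochondrial symbol were nad2, ccb203 and 3 of the 7 for nad1. The 11 dim insert loci were AT2G07670, AT2G07673, AT2G07691, AT2G07692, AT2G07693, AT2G07713, AT2G07714, AT2G07718, AT2G07732, AT2G07738 and AT2G07777. The residual SD of the tested members had a median of 0.40 on the log2 scale, against 0.37 over all tested probe sets.

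The arrays differed in measures that are not about genes of the seed. The mean log2 signal of the 24 poly-A control probe sets, which report RNAs added before labelling, was 8.85, 8.12 and 8.76 on the 10 °C arrays and 7.68, 7.69 and 7.74 on the short-day arrays. It was 5.65, 7.87 and 6.09 on the ft-1 arrays, against 6.99, 6.96 and 6.51 on the 20 °C long-day arrays. The 10 °C arrays were thus above the arrays of the other 3 groups, and ft-1 array 2 stood apart from the other ft-1 arrays. The 3′ over 5′ difference of GAPDH, a sign of RNA quality, was 1.32 to 1.79 on the 10 °C arrays, 0.56 to 1.65 on the short-day arrays and 0.80 to 1.03 on the ft-1 arrays, against 0.26 to 0.77 on the 20 °C long-day arrays (log2). The seed markers with a tested probe set (3 of 10 listed) were bright on every array and summed to 33702 to 36108 at 10 °C, 24011 to 26010 in short days and 18684 to 23723 in ft-1, against 17628 to 20823 in 20 °C long days. The pollen markers (4 of 5) summed to 389 to 436, 440 to 447 and 185 to 941, against 130 to 185, in the same order of groups. The green-tissue markers (6 of 9) summed to 1077 to 1228, 837 to 980 and 641 to 890, against 820 to 1302. The part of these differences in the results below was not tested, except that fits adjusted for the poly-A level are given.

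After maturation at 10 °C, 6 of the 36 tested members (16.7%) differed from 20 °C long days, against 31.9% of all tested probe sets. The 3 that rose, where 11.3% of all tested probe sets rose, were cox1, nad6 and nad7. The 3 that fell, where 20.5% of all fell, were ccb452 and ccb382, which mature cytochrome c, and a probe set of nad5. All 6 were among the 18 probe sets with a mitochondrial symbol, of which 33.3% thus passed, close to the 31.9% of all. Of the 18 insert loci, 0 passed the test and 1 had an unadjusted p under 0.05. The confidence intervals of the insert loci had a median half-width of 0.96. It was 0.64 for the mitochondrial symbols and 0.63 over all tested probe sets. Changes of the insert loci were thus harder to detect, and whether they differ from the mitochondrial symbols was not tested. The median difference was 0.11 over the 36 members and -0.16 over all tested probe sets. In 10 of the 36 (27.8%) the signals of the 2 groups did not overlap, against 48.0% of all tested probe sets.

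**Figure D1:**
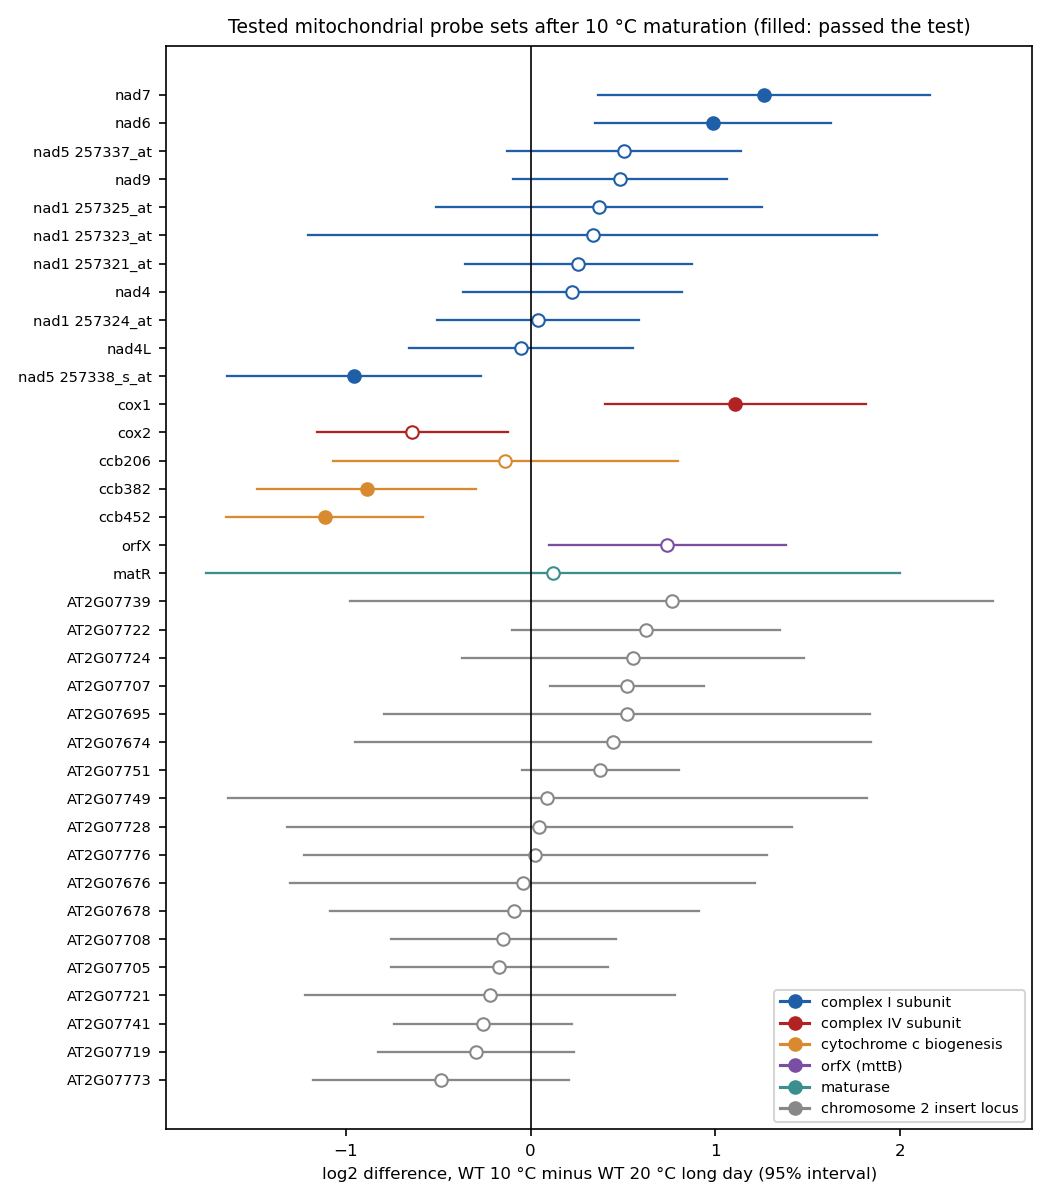
Log2 difference of each of the 36 tested mitochondrial probe sets, wild type at 10 °C minus wild type at 20 °C in long days, with its 95% interval. Colours give the member's role and filled points passed the test; 3 filled points lie right of 0 (nad7, nad6, cox1) and 3 lie left (the s_at probe set of nad5, ccb382, ccb452).

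Of the complex I subunits, 8 genes are on the array by name and 7 of them, with 11 probe sets, were tested. The 10 °C arrays were above the 20 °C long-day arrays on average in 9 of the 11, with a median difference of 0.34, and 2 rose and 1 fell. Of all tested probe sets, 42.3% were above, with a median of -0.16. The 11 include 4 of nad1 and 2 of nad5. nad6, a membrane subunit, gave signals of 105, 72.3 and 119 at 10 °C, 39.4, 64.6 and 47.5 in short days and 87.1, 41.6 and 63.3 in ft-1, against 52.7, 40.9 and 54.2 in 20 °C long days. All 10 °C arrays exceeded the short-day and the 20 °C long-day arrays, and ft-1 array 1 lay among them. nad6 rose by 0.99 (SE 0.30, adjusted p = 0.022). The call was lost without 20 °C long-day array 2 (0.86, adjusted p = 0.083), 10 °C array 1 (0.92, adjusted p = 0.076) or 10 °C array 3 (0.84, adjusted p = 0.094).

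nad7, a subunit of the arm that reaches into the matrix, gave low signals on all arrays. They were 22.5, 15.5 and 18.3 at 10 °C, 9.88, 16.5 and 11.2 in short days and 16.1, 9.88 and 15.5 in ft-1, against 7.89, 6.32 and 9.27 in 20 °C long days. The 20 °C long-day arrays were the lowest of the 4 groups and overlapped with none of them. nad7 rose by 1.26 at 10 °C (SE 0.42, adjusted p = 0.033). It did not pass without 20 °C long-day array 1 (1.28, adjusted p = 0.072) or array 2 (1.12, adjusted p = 0.094), without 10 °C array 1 (1.12, adjusted p = 0.11) or array 3 (1.27, adjusted p = 0.076), and with the filter on dim probe sets removed its adjusted p was 0.084.

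nad5, another membrane subunit, has 2 probe sets, and their differences had opposite signs. The first, with an identifier that ends in s_at, gave 59.7, 47.2 and 35.6 at 10 °C, 88.0, 64.9 and 87.2 in short days and 161, 70.4 and 183 in ft-1, against 78.9, 90.5 and 102.6 in 20 °C long days. The lowest of the 12 arrays were those at 10 °C. This probe set fell by 0.96 (SE 0.32, adjusted p = 0.035).

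The second probe set of nad5 gave 48.4, 41.4 and 41.2 at 10 °C, 43.9, 43.4 and 37.2 in short days and 86.0, 60.5 and 59.4 in ft-1, against 28.6, 20.5 and 49.2 in 20 °C long days. Its difference at 10 °C was 0.50 (SE 0.30, adjusted p = 0.21). Within each array the log2 ratio of the s_at probe set to the other was 0.09 ± 0.27 at 10 °C, 0.94 ± 0.33 in short days and 0.92 ± 0.71 in ft-1, against 1.55 ± 0.55 in 20 °C long days (SD, n = 3 each). It was looked at because the probe sets had been seen to differ, and is given without a test. The nad5 transcript is joined in part by trans-splicing from separately transcribed pieces, and where on it each probe set lies was not analysed here. The fall of the s_at probe set did not pass without any 1 of 20 °C long-day arrays 1, 2 and 3 (adjusted p = 0.057, 0.083 and 0.1, differences -1.05, -0.95 and -0.86) or of 10 °C arrays 2 and 3 (adjusted p = 0.058 and 0.14, differences -0.97 and -0.76).

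The other complex I members did not pass the test at 10 °C. nad9, a matrix-arm subunit, gave 99.7, 59.7 and 95.5 at 10 °C, 63.2, 75.3 and 50.7 in short days and 138, 81.4 and 101 in ft-1, against 49.6, 60.8 and 68.9 in 20 °C long days, with a difference of 0.48 at 10 °C (adjusted p = 0.19). nad4, a membrane subunit, gave 53.1, 98.7 and 51.2 at 10 °C, 97.0, 76.9 and 65.9 in short days and 58.9, 39.0 and 42.6 in ft-1, against 53.3, 53.9 and 58.5 in 20 °C long days. Of the 10 °C arrays, only array 2 was above the 20 °C long-day arrays for nad4, as were all 3 short-day arrays and, narrowly, ft-1 array 1. The difference at 10 °C was 0.23 (adjusted p = 0.56). The 4 tested nad1 probe sets had differences of 0.04 to 0.37 at 10 °C, with adjusted p of 0.52 to 0.92, and nad4L had -0.05 (adjusted p = 0.91).

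The complex IV genes cox1 and cox2, which encode its catalytic core, had differences of opposite sign at 10 °C. cox1 gave signals of 1325, 1177 and 1505 at 10 °C, 1176, 1255 and 1415 in short days and 688, 1435 and 613 in ft-1, against 848, 801 and 346 in 20 °C long days. All 10 °C and short-day arrays were above the 20 °C long-day arrays, of which array 3 was low, and ft-1 array 2 stood with the 10 °C and short-day arrays. cox1 rose by 1.11 at 10 °C (SE 0.33, adjusted p = 0.021), a 2.15-fold difference. Without 20 °C long-day array 3 the difference was 0.69 (adjusted p = 0.092), and the call was also lost without 10 °C array 1 (1.11, adjusted p = 0.059) or array 3 (1.02, adjusted p = 0.075). In the poly-A control level, ft-1 array 2 was likewise the highest of its group and 20 °C long-day array 3 the lowest of its own, whereas ft-1 array 1 had the lowest control level of all and more cox1 signal than ft-1 array 3. In a fit adjusted for the control level, the cox1 difference at 10 °C was 0.02 (adjusted p = 0.98). All 10 °C arrays lay above the others in control level, so that level and the 10 °C group can hardly be told apart in this fit, and its part in the cox1 difference was not settled.

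cox2 gave 91.5, 66.5 and 97.8 at 10 °C, 209.9, 175 and 181 in short days and 182, 133 and 135 in ft-1, against 131, 99.1 and 174 in 20 °C long days. These 10 °C signals were the lowest of the 12, and that of array 3 lay just below the lowest 20 °C long-day array. The difference from 20 °C long days was -0.64 (SE 0.24, adjusted p = 0.056).

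**Figure D2:**
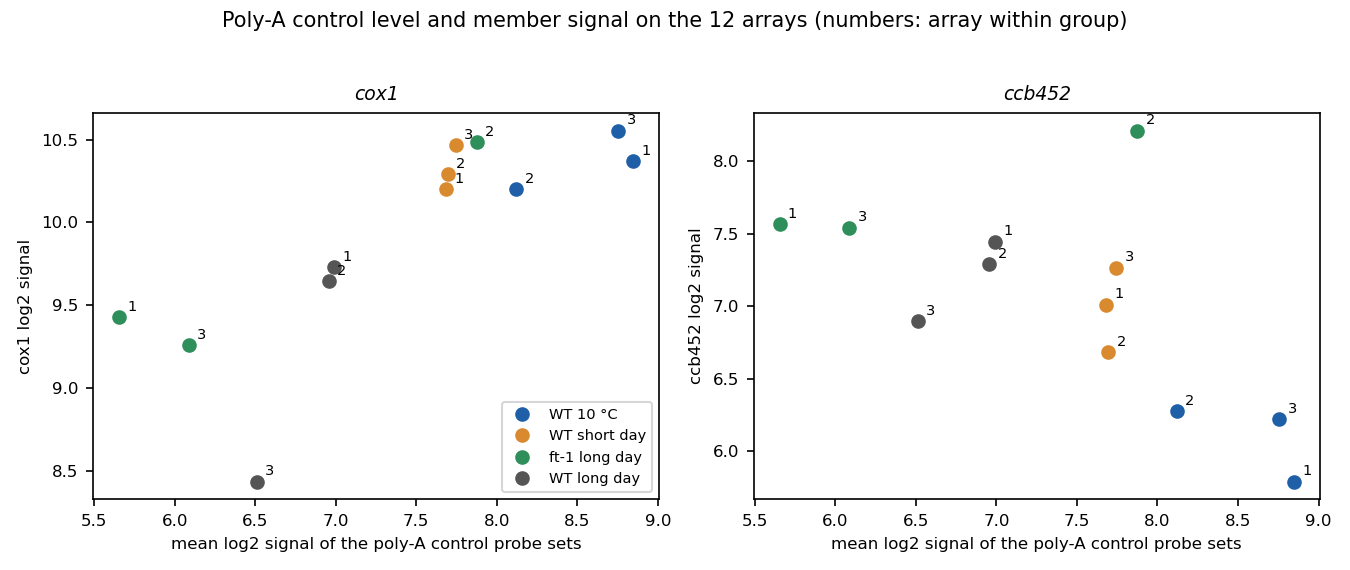
Log2 signal of cox1 (left) and ccb452 (right) on the 12 arrays against the mean log2 signal of the 24 poly-A control probe sets; the numbers are the array numbers within each group. For cox1, ft-1 array 2 lies beside the short-day arrays and 20 °C long-day array 3 lies lowest; for ccb452, ft-1 array 2 is the highest point and the 10 °C arrays are the lowest.

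The cytochrome c maturation genes had lower means at 10 °C in each of the 3 tested probe sets, and 2 fell. Of all tested probe sets, 42.3% had a higher mean at 10 °C and 20.5% fell. The other gene of this class, ccb203, was too dim to test. ccb452 (ccmFC), part of the machinery that attaches heme to cytochrome c, gave 55.3, 77.6 and 74.6 at 10 °C, 129, 103 and 154 in short days and 189, 296 and 186 in ft-1, against 174, 156 and 119 in 20 °C long days. No other group overlapped with the 10 °C arrays, and the ft-1 arrays were the highest. ccb452 fell by 1.11 (SE 0.25, adjusted p = 0.0052), a 2.16-fold difference. This call held without each array of the 2 groups in turn (-1.27 to -0.96). After adjustment for the poly-A level the limma difference was -1.60 (adjusted p = 0.016). As for cox1, that level and the 10 °C group can hardly be told apart in this fit, so its part in the ccb452 difference was not settled.

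ccb382 (ccmFN1), which belongs to the same machinery, gave 122, 173 and 123 at 10 °C, 194, 111 and 125 in short days and 189, 201 and 140 in ft-1, against 363, 238 and 190 in 20 °C long days. The 20 °C long-day arrays lay above all 10 °C arrays, with array 1 far above the rest. ccb382 fell by 0.89 at 10 °C (SE 0.28, adjusted p = 0.026). Without 20 °C long-day array 1 the difference was -0.63 (adjusted p = 0.13), and the adjusted p was 0.053 without array 2 of that group, 0.093 without 10 °C array 1 and 0.09 without 10 °C array 3 (differences -0.93, -0.80 and -0.81). ccb206 (ccmB), a subunit of the transporter in this pathway, gave 14.3, 15.4 and 21.5 at 10 °C, 17.0, 5.91 and 11.4 in short days and 10.6, 10.9 and 16.1 in ft-1, against 16.6, 20.8 and 18.2 in 20 °C long days. Its difference at 10 °C was -0.14 (adjusted p = 0.84).

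**Figure D3:**
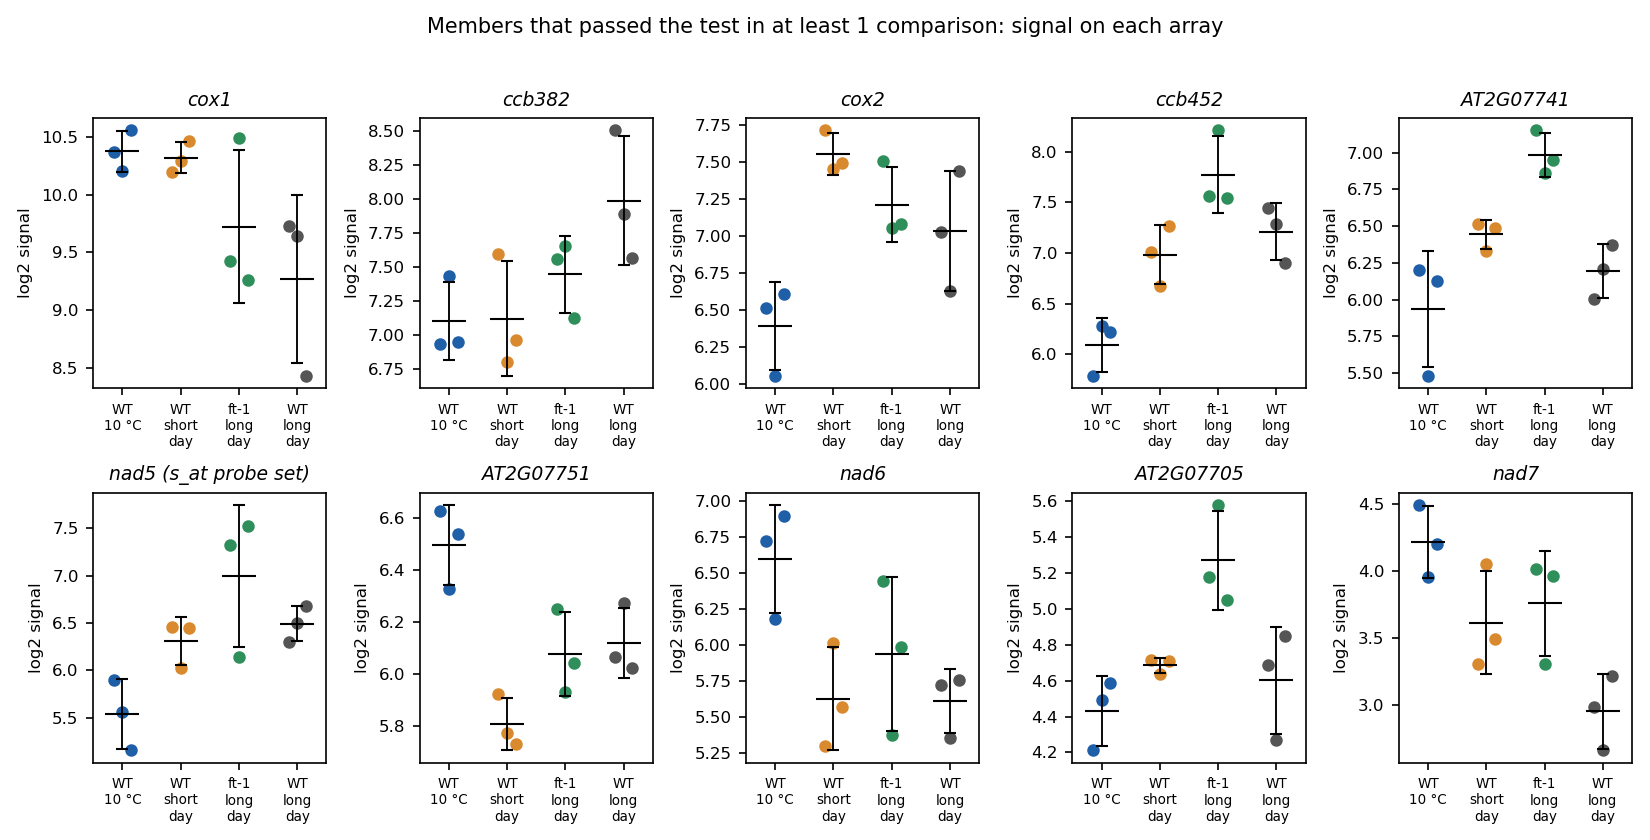
Log2 signal of the 10 members that passed the test in at least 1 of the 6 comparisons, on each array (points), with the mean and SD of each group of 3 (bars); groups run from wild type at 10 °C, wild type in short days and ft-1 to wild type at 20 °C in long days. Lowest are the 10 °C arrays for ccb452, cox2 and the nad5 s_at probe set, and the ft-1 arrays are the highest for AT2G07741 and AT2G07705.

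orfX (mttB), the export channel gene, gave 68.1, 66.4 and 67.8 at 10 °C, 43.3, 48.4 and 37.3 in short days and 42.0, 46.0 and 31.9 in ft-1, against 35.1, 68.1 and 27.6 in 20 °C long days. Signals at 10 °C were close to each other, and 20 °C long-day array 2 reached their level while its other arrays did not. The difference was 0.74 (SE 0.30, adjusted p = 0.073). matR, the maturase gene, had signals between 1.56 and 18.8 over the 12 arrays and a difference of 0.12 at 10 °C, with a 95% interval of -1.76 to 2.00.

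Among the 18 tested insert loci, the differences at 10 °C ran from -0.49 to 0.76 with a median of 0.04. AT2G07707 came nearest to the threshold, with 148, 125 and 127 at 10 °C, 152, 144 and 128 in short days and 145, 120 and 160 in ft-1, against 83.4, 90.5 and 105.6 in 20 °C long days. Its 20 °C long-day arrays were below those of all other groups, with differences of 0.52 at 10 °C (SE 0.19, adjusted p = 0.053), 0.60 in short days (adjusted p = 0.13) and 0.60 in ft-1 (adjusted p = 0.21). AT2G07751 gave 98.8, 80.4 and 92.9 at 10 °C, 60.7, 54.7 and 53.1 in short days and 76.2, 61.1 and 66.0 in ft-1, against 67.0, 77.3 and 65.0 in 20 °C long days. Its 10 °C arrays were the highest of the 12, with a difference of 0.38 from 20 °C long days (adjusted p = 0.16).

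AT2G07695 was uneven within 2 of the groups. It gave 156, 214 and 167 at 10 °C, 165, 156 and 225 in short days and 64.2, 329 and 41.9 in ft-1, against 216, 171 and 50.7 in 20 °C long days. As for cox1, ft-1 array 2 was high and 20 °C long-day array 3 low, and its difference of 0.52 at 10 °C had a 95% interval of -0.79 to 1.84. AT2G07719 gave 89.4, 86.7 and 106.4 at 10 °C, 148, 90.7 and 125 in short days and 69.6, 105.8 and 63.2 in ft-1, against 105, 134 and 108 in 20 °C long days, a difference of -0.29 at 10 °C (adjusted p = 0.38). AT2G07773 gave 33.8, 18.9 and 38.2 at 10 °C, 39.9, 26.9 and 48.0 in short days and 41.5, 36.5 and 28.0 in ft-1, against 48.2, 43.5 and 31.9 in 20 °C long days, a difference of -0.49 (adjusted p = 0.27).

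The split of calls at 10 °C into higher and lower depended on the scaling, although none of the 6 called members changed sign. Scaling on the hybridisation controls shifted all probe sets of an array alike and moved the median of all tested probe sets to -0.85, and there 9 members fell and 0 rose (52.6% of all tested probe sets passed), with a member median of -0.58. In that scaling cox1, nad6 and nad7 kept positive differences of 0.42, 0.30 and 0.58 that did not pass the test, while ccb452, ccb382 and the s_at probe set of nad5 fell by 1.80, 1.57 and 1.64. Quantile normalization gave 6 that rose and 1 that fell (28.0% of all tested probe sets), and centring on the array median gave 4 and 3 (30.6%). After adjustment for the poly-A level ccb452 was the single member that passed, against 3.1% of all tested probe sets.

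In short days, 0 of the 36 tested members passed limma's test against 20 °C long days, where 1.78% of all tested probe sets did. At an unadjusted p under 0.05 there were 4 members (11.1%), against 17.4% of all tested probe sets, and with array weights 5 passed, where 17.9% of all did. The median difference was 0.13 over the members and -0.06 over all tested probe sets. In 6 members (16.7%) the groups did not overlap, against 30.3% of all tested probe sets.

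cox1 had the largest short-day difference, 1.05 (SE 0.33, adjusted p = 0.13), with its short-day arrays above all 20 °C long-day arrays. cox2 was also above without overlap, by 0.52 (SE 0.24, adjusted p = 0.28). nad4, by 0.52 (adjusted p = 0.36), and nad7, by 0.66 (adjusted p = 0.44), likewise did not overlap with 20 °C long days. On the other side, ccb382 had a difference of -0.87 (SE 0.28, adjusted p = 0.13) and ccb206 of -0.82 (SE 0.44, adjusted p = 0.35), and both overlapped with 20 °C long days. AT2G07751 was lower in short days without overlap, by -0.31 (adjusted p = 0.45).

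AT2G07724 gave 49.2, 35.0 and 39.9 at 10 °C, 44.1, 18.7 and 11.0 in short days and 15.6, 29.4 and 25.8 in ft-1, against 21.3, 34.2 and 29.7 in 20 °C long days. Of the short-day arrays, array 1 was above that range and the others below it. Its short-day difference was -0.42 (adjusted p = 0.66). AT2G07676 gave 4.99, 10.5 and 11.7 at 10 °C, 4.50, 9.59 and 5.85 in short days and 19.8, 10.2 and 11.4 in ft-1, against 5.49, 8.44 and 14.5 in 20 °C long days, a short-day difference of -0.47 (adjusted p = 0.73). The 95% intervals of the members had a median half-width of 0.69. These intervals are not adjusted for the number of probe sets tested, so that width is not the limit of detection. The short-day differences of cox1, ccb382, AT2G07707 and cox2 exceeded the half-widths of their own intervals, and none of them passed the adjusted test. Differences above as well as below that median width could thus go uncalled with 3 arrays a group.

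**Figure D4:**
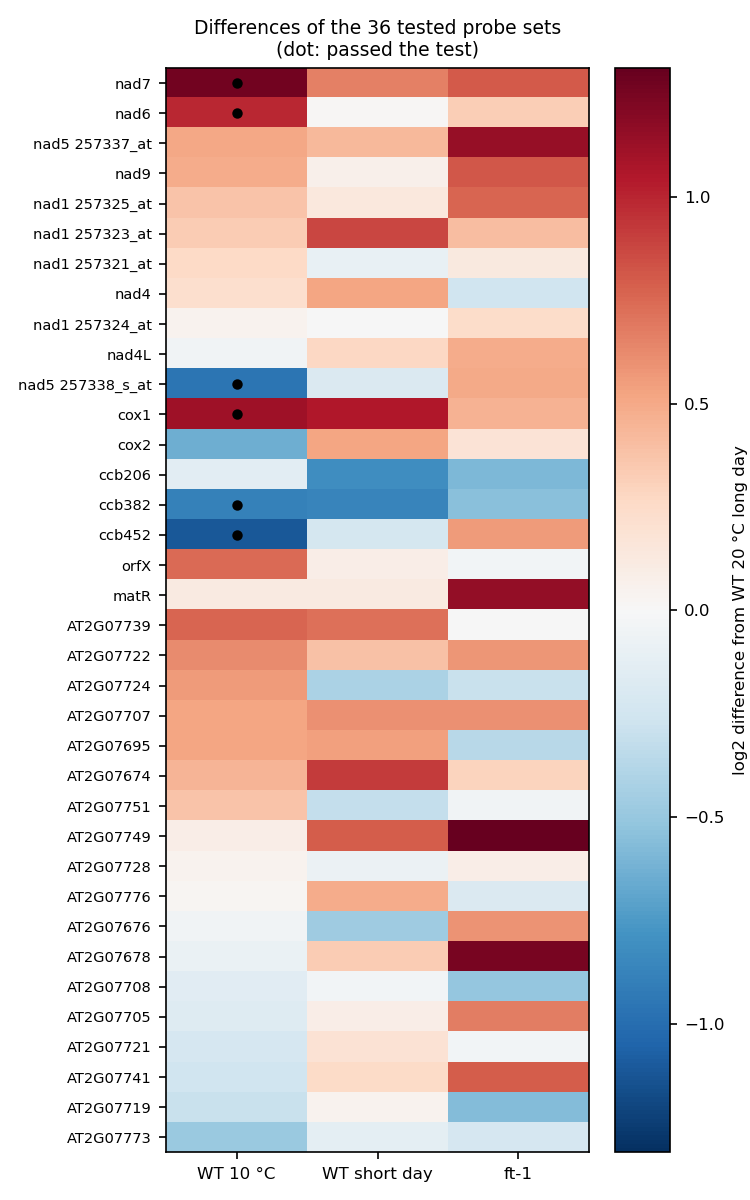
Log2 difference of each of the 36 tested probe sets from wild type at 20 °C in long days, in wild type at 10 °C, wild type in short days and ft-1 (columns), in colour from lower (blue) to higher (red), with dots where the test was passed. Dots appear in the 10 °C column at 6 members and in neither other column; the 3 columns share their control arrays.

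In ft-1 seed, 0 of the 36 members passed limma's test against 20 °C long-day wild type, where 0.388% of all tested probe sets did. At an unadjusted p under 0.05 there were 8 (22.2%), against 12.3% of all tested probe sets, and with array weights 12 passed, where 12.9% of all did. The ft-1 arrays were above wild type on average in 23 of 36 (63.9%), against 44.4% of all tested probe sets. The median was 0.31, against -0.06 over all tested probe sets. In 10 members (27.8%) the groups did not overlap, against 18.0% of all tested probe sets. ft-1 array 2 lay more than 1 log2 unit from the mean of the other ft-1 arrays in 8 of the 36 members (22.2%) and in 20.9% of all tested probe sets.

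Of the 11 complex I probe sets, 10 had a higher mean in ft-1, with a median of 0.49, and 0 passed the test. Of all tested probe sets, 44.4% had a higher mean, with a median of -0.06. The 11 are not separate genes, since 4 are of nad1 and 2 of nad5. The second nad5 probe set was 1.14 higher (SE 0.30, adjusted p = 0.11), and its 3 ft-1 arrays were above all 9 wild-type arrays. nad9 was 0.81 higher than in 20 °C long days (SE 0.27, adjusted p = 0.22), without overlap. nad7 was 0.81 higher (adjusted p = 0.46), also without overlap. For the s_at probe set of nad5, whose difference was 0.50 (adjusted p = 0.57), ft-1 arrays 1 and 3 were the highest of the 12 and array 2 lay below all 20 °C long-day arrays. Array 2 was the lowest of the ft-1 arrays in 8 of the 11 complex I probe sets, which include those of nad9, nad6, nad7, nad4 and nad4L, and in 48.0% of all tested probe sets. It lay between the others for the second nad5 probe set and for 1 of nad1, and was the highest for another of nad1.

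ccb452 was above 20 °C long-day wild type in ft-1 without overlap, by 0.56 (SE 0.25, adjusted p = 0.38). ccb382, at -0.54 (adjusted p = 0.45), and ccb206, at -0.59 (adjusted p = 0.63, without overlap), were below it. cox1 had a difference of 0.46 with a 95% interval of -0.25 to 1.16, and cox2 one of 0.18 with -0.34 to 0.69.

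Of the 18 tested insert loci, 9 had a higher and 9 a lower mean in ft-1, with a median difference of 0.04. Of all tested probe sets, 44.4% had a higher mean. Among these loci 0 passed limma's test and 5 (27.8%) had an unadjusted p under 0.05, against 12.3% of all. AT2G07741 gave 73.6, 44.7 and 70.0 at 10 °C, 91.6, 80.6 and 89.5 in short days and 142, 116 and 123 in ft-1, against 64.2, 73.9 and 82.8 in 20 °C long days. The ft-1 arrays were the highest of the 12, with a difference of 0.79 from 20 °C long days (SE 0.23, adjusted p = 0.15). AT2G07678 gave 7.64, 8.37 and 16.8 at 10 °C, 12.5, 14.4 and 14.3 in short days and 30.5, 19.4 and 29.0 in ft-1, against 5.83, 15.2 and 14.6 in 20 °C long days, a difference of 1.24 (SE 0.47, adjusted p = 0.28). AT2G07705 gave 18.5, 22.5 and 24.1 at 10 °C, 26.2, 24.9 and 26.2 in short days and 36.3, 47.8 and 33.2 in ft-1, against 25.8, 19.3 and 28.8 in 20 °C long days, a difference of 0.67 (SE 0.27, adjusted p = 0.34). For each of these 3 loci the ft-1 arrays were above all 9 wild-type arrays. AT2G07708 went the other way, with 30.9, 29.0 and 29.1 at 10 °C, 31.2, 31.0 and 34.2 in short days and 17.2, 31.2 and 22.9 in ft-1, against 32.5, 41.7 and 26.2 in 20 °C long days, a difference of -0.51 (adjusted p = 0.50). AT2G07719, with the signals given above, was also lower in ft-1, by -0.57 (SE 0.25, unadjusted p = 0.036, adjusted p = 0.37), and the groups overlapped at ft-1 array 2.

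The 10 °C and short-day groups were also set against each other directly, and 4 of 36 members passed (11.1%), against 17.5% of all tested probe sets. cox2 fell by 1.16 at 10 °C relative to short days (SE 0.24, adjusted p = 0.0058), and this held without each array of the 2 groups in turn. ccb452 fell by 0.89 (adjusted p = 0.026). nad6 rose by 0.97 (adjusted p = 0.038) and AT2G07751 by 0.69 (adjusted p = 0.029). These 3 lost the call without single arrays: ccb452 without short-day array 1 or 3 or 10 °C array 1 or 3 (adjusted p = 0.078, 0.11, 0.12 and 0.06), nad6 without the same arrays (adjusted p = 0.14, 0.11, 0.12 and 0.15), and AT2G07751 without short-day array 1, 2 or 3 or 10 °C array 1 or 3 (adjusted p = 0.06, 0.072, 0.091, 0.11 and 0.093). Under hybridisation-control scaling 0 members rose and 4 fell, where 31.1% of all tested probe sets passed.

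Between ft-1 and 10 °C wild type, which differ in both genotype and temperature, 5 of 36 members passed (13.9%), against 24.0% of all tested probe sets, and all 5 were higher in ft-1, as were 14.6% of all. ccb452 was 1.68 higher in ft-1 (SE 0.25, adjusted p = 0.00051). The s_at probe set of nad5 was 1.46 higher (SE 0.32, adjusted p = 0.0060) and AT2G07741 was 1.05 higher (SE 0.23, adjusted p = 0.0052). For cox2 the difference was 0.82 (adjusted p = 0.025) and for AT2G07705 0.84 (adjusted p = 0.039). The first 3 kept their call without each array of the 2 groups in turn. cox2 lost it without ft-1 array 1 or 3 or 10 °C array 1 or 2 (adjusted p = 0.11, 0.05, 0.054 and 0.074), and AT2G07705 without ft-1 array 1, 2 or 3 or 10 °C array 1 or 3 (adjusted p = 0.089, 0.087, 0.064, 0.12 and 0.065). Without ft-1 array 2, 9 members passed, where 37.5% of all tested probe sets did. Quantile normalization split the calls into 4 higher and 4 lower, where 21.5% of all passed. The comparison of ft-1 with short-day wild type gave 0 of 36 with limma, against 0.176% of all tested probe sets. At an unadjusted p under 0.05 there were 6 (16.7%), against 6.61% of all tested probe sets. With array weights 12 passed, where 16.8% of all did.

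The summed signal of the 52 members was small beside the whole array. It was 0.0769% ± 0.0051 of the array's total at 10 °C, 0.0857% ± 0.0047 in short days and 0.0854% ± 0.0132 in ft-1, against 0.0714% ± 0.0122 in 20 °C long days (SD, n = 3 each). Between 16.4% and 43.5% of the sum on an array came from the cox1 probe set, and probe sets differ in how brightly they respond. Without cox1 the sum was 0.0452% ± 0.0019 at 10 °C, 0.0521% ± 0.0047 in short days and 0.0606% ± 0.0036 in ft-1, against 0.0529% ± 0.0044 in 20 °C long days. These shares depend on the array totals, which were 4118258 to 4294736 at 10 °C, 3779300 to 3854280 in short days and 3516240 to 3794159 in ft-1, against 3551554 to 3652689 in 20 °C long days. Without division by the total, the members without cox1 summed to 1991, 1770 and 1955 at 10 °C, 2145, 1785 and 2023 in short days and 2236, 2343 and 2067 in ft-1, against 2026, 1936 and 1761 in 20 °C long days. The 10 °C and 20 °C long-day sums overlapped, so the lower share at 10 °C without cox1 went with the larger array totals there. The ft-1 sums lay above all 3 of 20 °C long days, while the shares without cox1 overlapped. The share was 0.0566% on ft-1 array 3 and 0.057% on 20 °C long-day array 1.

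**Figure D5:**
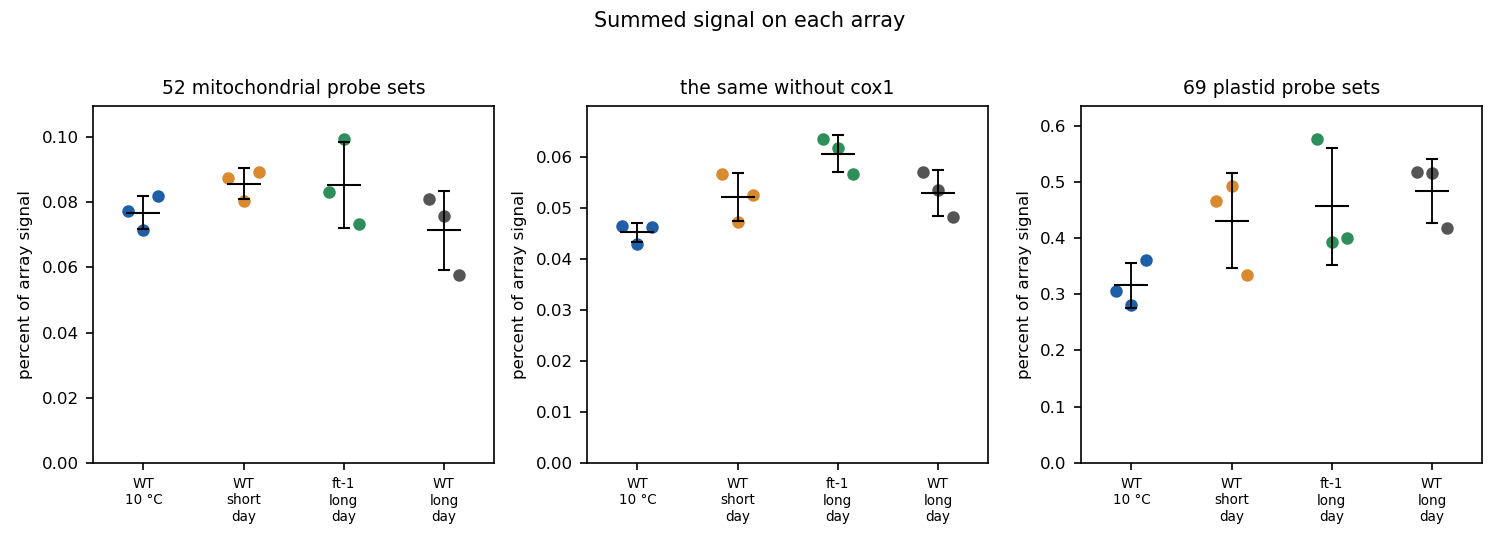
Summed signal as a percent of all signal on each array (points), with the mean and SD of 3 arrays (bars), for the 52 mitochondrial probe sets, the same without cox1, and the 69 plastid probe sets; the 3 axes start at 0 and differ in scale. Without cox1 the 10 °C arrays sit at 0.043 to 0.0464%, below the 20 °C long-day arrays at 0.0482 to 0.057%, but the same sums before division by the array total overlap, at 1770 to 1991 and 1761 to 2026.

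The other organelle genome gave a different count in the same fit. Of 67 tested plastid-encoded probe sets, 3 rose and 31 fell at 10 °C (50.7%, median -0.65), where 31.9% of all tested probe sets passed, 20.5% fell and the median was -0.16. In short days and in ft-1 0 passed limma's test against 20 °C long days, where 1.78% and 0.388% of all did. Those that fell included rpl36, a ribosomal protein (-2.45), clpP, a protease subunit (-1.83), ndhI of the plastid NDH complex (-3.66) and atpB of the plastid ATP synthase (-1.50). The 3 that rose were rpl32, another ribosomal protein (1.75, adjusted p = 0.023), psbA, which encodes a photosystem II core protein (1.17, adjusted p = 0.0031), and psaJ (0.68, adjusted p = 0.042). Plastid signal made up 0.316% ± 0.040 of the array's total at 10 °C, 0.431% ± 0.085 in short days and 0.457% ± 0.104 in ft-1, against 0.484% ± 0.057 in 20 °C long days (SD, n = 3 each). Before division by the array total, the plastid sum was 11560 to 15241 at 10 °C, 12875 to 18596 in short days and 14611 to 20281 in ft-1, against 15280 to 18617 in 20 °C long days. The difference between the organelles was not tested.

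Nuclear genes for mitochondrial proteins were taken from 7 lists with 87 genes, of which 36 had a tested probe set. At 10 °C, 5 rose and 8 fell (36.1%), close to the 31.9% of all tested probe sets. Of 9 tested genes for complex IV subunits and assembly, 3 rose and 0 fell: AT3G62400 by 1.29 (SE 0.26, adjusted p = 0.0031), AT2G47380 by 0.77 (adjusted p = 0.0067) and AT1G53030 by 1.22 (adjusted p = 0.011). Of 8 for complex III and cytochrome c, CYTC-1, a cytochrome c gene, rose by 1.11 (adjusted p = 0.0069), while MPPBETA, a subunit of the processing peptidase built into plant complex III, fell by 0.79 (adjusted p = 0.0090) and AT1G51980 by 0.62 (adjusted p = 0.033).

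SDH1-1, the flavoprotein subunit of complex II, fell by 1.05 at 10 °C (adjusted p = 0.0018), NDB2, an alternative NAD(P)H dehydrogenase, fell by 0.74 (adjusted p = 0.013), and AT1G51650 of the ATP synthase list rose by 1.26 (adjusted p = 0.0074). None of the 3 tested nuclear complex I genes passed. In the list of nuclear factors for mitochondrial gene expression and genome upkeep, 7 of 22 genes had a tested probe set. At 10 °C 4 of the 7 fell and 0 rose, with a list median of -1.25. Of all tested probe sets 20.5% fell, and their median was -0.16. Those that fell were AT5G14580 by 1.85 (adjusted p = 0.0025), AT5G46920 by 1.25 (adjusted p = 0.0047), AT5G04050 by 2.51 (adjusted p = 0.015) and AT1G74350 by 1.84 (adjusted p = 0.021). At 10 °C the mean log2 signals of AT5G04050 and AT1G74350 were 1.94 and 2.11, under the filter of 2.88. These 2 genes were tested because the other groups were brighter, and the size of their falls is uncertain. In short days AT5G25450 of the complex III list rose by 1.20 (adjusted p = 0.016) and SDH2-1, the iron-sulphur subunit of complex II, fell by 1.26 (adjusted p = 0.018). In ft-1, 0 of the 36 passed against 20 °C long-day wild type.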

How the data were processed

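RNA of 12 seed samples was labelled with a 3′ kit, per the labels' protocols. The authors deposited intensities on a linear scale; the submitters' processing notes name MAS5 and GCOS without a version. With 2% trimmed at each end, every deposited column had a mean of 100. The 64 AFFX control probe sets stayed out of the gene tests. The deposited intensities were log2-transformed here with that scaling kept, and probe sets with a mean under 2.88 were not tested. Per the annotation given with the data, 13513 probe sets had 1 gene, 503 several and 8730 none. Symbols of the mitochondrial genes (16 of 16) and loci were matched to TAIR10.1, and no sequence or coordinate is printed because no sequence table and no build for the probe annotation were given. No column belonged to samples outside the 12.

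All 12 arrays entered 1 linear model of group means in limma 3.58.1 (R 4.3.3), with an intensity-dependent prior. p-values were two-sided and Benjamini-Hochberg adjusted over 13648 probe sets in each of 6 comparisons. On simulated data with 200 changed probe sets of the 10 °C comparison, 31 of 50 falls and 39 of 50 rises of 2 log2 units were recovered, 14 and 22 of 50 at 1 log2 unit, with 4 false calls. In the measured 10 °C comparison 31.9% of the 13648 passed, far more than were changed in the simulation. The adjusted p depends on that share, so the simulated recovery does not give the sensitivity of the measured comparison. No clear pairing of samples by replicate number was seen, and the numbers were not a block. Signals on every array are given for the 10 brightest tested members. They are also given for the members with the smallest adjusted p. These are up to 6 in each direction of the 3 comparisons against 20 °C long-day wild type, and up to 3 in the others. Of other gene lists at most 4 are named, and of the plastid list also the 3 that rose at 10 °C. The members and lists were chosen with earlier results of these data known. The alternatives are listed in the closing section.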

Additional observations from a re-analysis of the deposited data

How the results depend on the processing

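Counts of members that passed are given here against those reported, which were 6 for 10 °C, 0 for short days and 0 for ft-1 against 20 °C long days, 4 for 10 °C against short days, 0 for ft-1 against short days and 5 for ft-1 against 10 °C. The 10 °C count was 1 with the poly-A covariate (3.1% of all tested probe sets passed) and 3 when a 2-fold change was required. The short-day count was 5 with array weights (17.9% of all passed). It was 1 with no filter, 1 in a fit of only the 2 groups and 2 with the spread estimated without ft-1 array 2. The ft-1 count was 12 with array weights (12.9%) and 2 with the poly-A covariate (7.75%). The count for 10 °C against short days was 2 with no filter and 1 at 2-fold. The count for ft-1 against short days was 12 with array weights (16.8%) and 2 with ft-1 array 2 left out of the whole fit. The count for ft-1 against 10 °C was 8 with quantile normalization (21.5% of all tested probe sets passed), 12 with hybridisation-control scaling (47.3%), 13 with array weights (50.0%), 3 in a fit of only the 2 groups, 1 with the poly-A covariate, 9 with the spread estimated without ft-1 array 2, 3 at 2-fold and 3 over mitochondrial symbols alone. The cause of these shifts was not tested, except that a required fold change and a smaller set of members can only lower a count. The share of all tested probe sets moves with the setting as well. Counts in this section without that share beside them cannot be read as a change of the members alone.

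Leaving out 1 array at a time gave 1 to 6 members at 10 °C, 0 to 0 in short days, 0 to 1 in ft-1, 1 to 4 for 10 °C against short days, 0 to 2 for ft-1 against short days and 3 to 9 for ft-1 against 10 °C. The lowest 10 °C count, 1, came without 10 °C array 3, and it was 2 without 10 °C array 1 and 3 without 20 °C long-day array 1. The count for 10 °C against short days was 2 without short-day array 1, and 1 without short-day array 3, 10 °C array 1 or 10 °C array 3. The count for ft-1 against 10 °C was 3 without ft-1 array 1, ft-1 array 3 or 10 °C array 1. It was 9 without ft-1 array 2, where 37.5% of all passed. The ft-1 count was 1 without 20 °C long-day array 3, and that for ft-1 against short days was 2 without ft-1 array 2. Samples with the same replicate number deviated from their group means with correlations of -0.23 to 0.142, so the numbers share no more than a name. With the replicate block, 6 members passed at 10 °C (2 rose, 4 fell), 3 for 10 °C against short days, 4 for ft-1 against 10 °C and 0 in the other 3 comparisons.

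For the 15 calls over all other alternatives, 161 refits kept the call and 44 lost it. With arrays of the 2 compared groups left out, 49 kept it and 41 lost it, and no called difference changed sign. For the ft-1 calls, the fit without ft-1 array 2 is in both of these tallies. Over mitochondrial symbols alone the summed signal was 0.0552% at 10 °C, 0.0618% in short days and 0.0607% in ft-1, against 0.0493% in 20 °C long days, from fewer probe sets by construction. The nuclear lists gave 1 call in place of 2 in short days with median centring. Offset, stricter filter and a prior without trend left the counts within 1.5 times. MAS5 signals near the filter are noisy on a log scale, and 3 arrays a group limit the precision.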

Other observations

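The 12 probe sets that the annotation assigns to several mitochondrial or insert genes were left out of the members because no single gene can be named for them, and 10 of them were bright enough to be tested. At 10 °C, 1 rose and 3 fell against 20 °C long days, with differences of -0.71 to 1.92 and a median of -0.29, where 31.9% of all tested probe sets passed and the median was -0.16. In short days limma called 0 of the 10, where 1.78% of all passed. An unadjusted p under 0.05 was seen in 4, and in 17.4% of all tested probe sets. In ft-1 limma called 0 as well, where 0.388% of all passed, and 3 had an unadjusted p under 0.05, against 12.3% of all. All 10 had a higher mean in ft-1 than in 20 °C long-day wild type, by 0.06 to 1.16, where 44.4% of all tested probe sets had one. Between 10 °C and short days 1 rose and 2 fell, where 17.5% of all passed, and between ft-1 and 10 °C 4 were higher in ft-1 and 0 lower, where 24.0% of all passed. The genes behind these probe sets are mitochondrial or insert genes in each case, so the counts cover the same genome by probes that the members do not use.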
